A study of Mus musculus with 2 samples.

Results

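The genes described here are the proteases that cut the extracellular matrix and the proteins that inhibit them, in the developing lacrimal gland of the mouse, the gland that makes the watery part of tears. They are all features whose symbol is Mmp, Adamts or Timp followed by the number of a family member, together with Htra1, Htra3, Reck and Ctsk, chosen by symbol, as a family picked with earlier results of these data known. That rule found 50 genes among 27775 features. Glands were wild type, of the CD1 outbred strain, and came from postnatal day 4 (P4) and embryonic day 16 (E16) mice. Each stage is 1 library made from pooled glands, from a number of animals that the labels leave unstated. Glands were dissociated with Liberase TM, an enzyme blend that contains collagenases, and DNase I, so the tissue was itself opened by matrix-degrading enzymes before RNA was captured from single cells. With 1 library per stage no difference was tested. Intervals are 95% and cover counting error only, and neither animal-to-animal nor library-to-library variation can be told apart from stage.

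Matrix metalloproteinases (MMPs) are zinc enzymes made as inactive precursors. Some are secreted and others are held at the cell surface, where they cut collagens, proteoglycans and other proteases. ADAMTS enzymes are secreted zinc proteases that cut hyaluronan-binding proteoglycans such as aggrecan and versican, or remove the amino-terminal ends of newly made fibrillar procollagens. Tissue inhibitors of metalloproteinases (TIMPs) block both families to different degrees, and in branching glands such as the lacrimal gland the matrix between epithelium and mesenchyme is remodelled as buds grow and split.

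Barcodes with at least 200 detected genes were taken as cells, which gave 406 cells and 1975814 unique molecular identifiers (UMIs, each counted as 1 RNA molecule) in P4, and 259 cells and 1711606 UMIs in E16. The median cell held 3767 UMIs in P4 and 5802 in E16. No barcode was shared by the libraries. Cells were clustered without the 50 genes and named from marker lists. The mesenchyme-like class held 177 cells in P4 and 98 in E16, and 11 of its 12 markers in P4 and 10 of 12 in E16 were found in at least 20% of its cells. The epithelial-like class held 98 cells in P4 and 87 in E16, with 8 of 13 markers in P4 and 10 of 13 in E16 found that often. Levels are UMIs summed over the cells of a class scaled to 1000000 UMIs of that class (CPM). They are not corrected for transcript length, so they are compared between cells for the same gene and not between genes.

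Of the 50 genes, 25 had at least 30 UMIs over the cells of both libraries, 14 had 1 to 29 UMIs and 11 had none. All 5 inhibitors and all 3 of Htra1, Htra3 and Ctsk were among the 25, and so were 5 of the 7 ADAMTS enzymes that cut proteoglycans. Of the 4 collagenases, Mmp1a, Mmp1b and Mmp13 had no UMI and Mmp8, the neutrophil collagenase, had 1. The other genes with no UMI were Mmp7, Mmp10, Mmp20, Mmp21, Mmp24, Mmp25, Adamts6 and Adamts13. Mmp1a is annotated as a polymorphic pseudogene. Mmp1a and Mmp1b are related genes, and whether reads that fit both were lost in counting was not tested. A count of 0 allows up to 3.70 CPM in P4 mesenchyme-like cells and 4.70 CPM in those of E16, taking 3 counts over the class as the limit. Of the 23 Mmp genes, 10 lie together on chromosome 9, from 7272514 to 7699585 in mm10, in the order Mmp13, Mmp12, Mmp1b, Mmp3, Mmp1a, Mmp10, Mmp8, Mmp27, Mmp20 and Mmp7. In this cluster 4 genes were detected and 6 were not, and only Mmp3 reached 30 UMIs. Elsewhere in the genome 10 of 13 Mmp genes were detected.

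The promoters below belong to genes with the largest stage ratios in mesenchyme-like cells that had an entry in the set of RefSeq promoters used (GRCm38.p6). Mmp2 (ratio 4.52) and Mmp16 (ratio 0.311) had no entry in that set and are not shown. Mmp23, Htra3, Mmp3 and Htra1 were higher in P4, and Adamts9 was lower. Each run is the 250 bases before the annotated start, 5′ to 3′ on the gene's strand, and capitals mark matches to 3 searched motifs.
Mmp23, chr4:155653385-155653634, minus strand: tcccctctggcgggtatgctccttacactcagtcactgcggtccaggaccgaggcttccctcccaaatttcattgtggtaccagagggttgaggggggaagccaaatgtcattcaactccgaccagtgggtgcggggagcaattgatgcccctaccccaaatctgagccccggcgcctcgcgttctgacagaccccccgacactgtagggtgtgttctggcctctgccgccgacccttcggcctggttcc
Htra3, chr5:35679781-35680030, minus strand: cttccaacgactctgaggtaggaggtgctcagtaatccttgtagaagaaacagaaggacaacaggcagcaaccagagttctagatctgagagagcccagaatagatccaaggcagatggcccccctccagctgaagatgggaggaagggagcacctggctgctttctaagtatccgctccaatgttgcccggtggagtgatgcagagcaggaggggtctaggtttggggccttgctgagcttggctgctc
Mmp3, chr9:7445572-7445821, plus strand: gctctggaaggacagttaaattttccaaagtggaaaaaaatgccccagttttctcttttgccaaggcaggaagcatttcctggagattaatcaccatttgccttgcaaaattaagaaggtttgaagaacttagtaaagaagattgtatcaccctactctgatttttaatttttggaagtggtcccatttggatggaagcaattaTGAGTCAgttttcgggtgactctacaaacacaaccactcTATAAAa
Htra1, chr7:130935953-130936202, plus strand: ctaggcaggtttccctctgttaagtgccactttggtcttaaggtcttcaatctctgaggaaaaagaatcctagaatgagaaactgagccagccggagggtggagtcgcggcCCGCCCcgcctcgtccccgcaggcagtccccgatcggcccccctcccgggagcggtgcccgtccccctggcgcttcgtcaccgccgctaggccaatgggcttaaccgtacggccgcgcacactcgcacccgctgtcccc
Adamts9, chr6:92943535-92943784, minus strand: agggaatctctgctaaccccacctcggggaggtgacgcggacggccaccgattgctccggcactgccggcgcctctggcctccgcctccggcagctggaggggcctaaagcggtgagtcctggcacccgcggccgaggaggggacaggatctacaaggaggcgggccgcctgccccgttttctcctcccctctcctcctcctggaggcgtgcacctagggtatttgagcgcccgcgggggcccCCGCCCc
Both strands were searched. The AP-1 motif was spelled TGANTCA. The TATA box was spelled TATAAA. The GC box was spelled GGGCGG, and no match overlapped another in the runs shown. Mmp3 carried TGAGTCA beginning 46 bases before its start and TATAAA beginning 7 bases before it. Htra1 carried a GC box on the opposite strand 139 bases before its RefSeq start, which lies 92 bases from the GENCODE start of the same gene. Adamts9 carried one on the opposite strand 7 bases before its RefSeq start, which lies 42 bases from the GENCODE start. In the windows of Mmp23 and Htra3 none of the motifs was found. Among 32851 RefSeq windows of this length, 6.75% held the AP-1 letters, 12.4% the TATA letters and 32.7% the GC box letters. Of the 18 genes with at least 30 UMIs that had an entry, 1 held AP-1, 2 held TATAAA and 12 held the GC box. A match describes letters only.

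In both libraries most of the RNA of these genes was in mesenchyme-like cells. This class held 3373 of 3837 UMIs (87.9%) in P4 and 1452 of 2028 (71.6%) in E16. Epithelial-like cells held 169 UMIs (4.40%) in P4 and 220 (10.8%) in E16. Summed over the 50 genes, the level in P4 was 4155 CPM in mesenchyme-like and 229 CPM in epithelial-like cells. In E16 the sums were 2274 CPM in mesenchyme-like and 351 CPM in epithelial-like cells. Among the 4 classes with at least 10 cells in both libraries (mesenchyme-, epithelial-, erythroid- and endothelial-like), the mesenchyme-like class had the highest level for 21 of the 25 genes in P4 and for 21 in E16, and the endothelial-like class for the other 4 in each. With every class of at least 10 cells in its own library, the count was 21 in P4 and 13 in E16. The mural-like class (pericytes and smooth muscle), which had 16 cells in E16 and 9 in P4, was then highest for 9 genes in E16. Many of these ranks were not separated by counting error. The interval of the highest class overlapped that of the next for 10 of the 21 mesenchyme-like genes in P4 and 8 of the 13 in E16, for 7 of the 9 mural-like genes, and for all of the endothelial-like ones. Timp4 in P4 rests on 1 UMI.

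**Figure D1:**
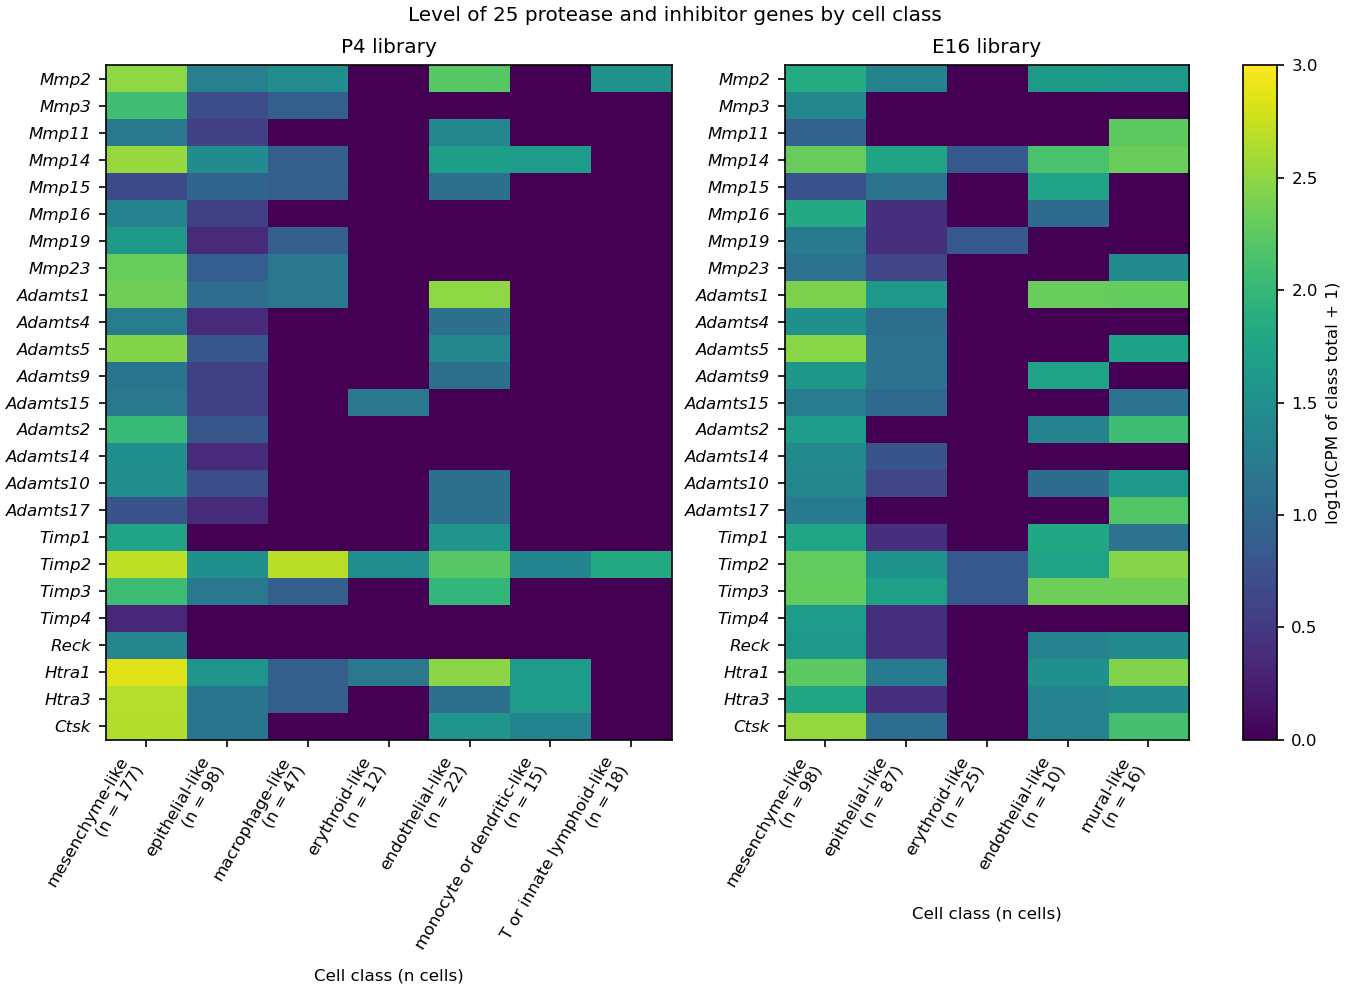
Level of the 25 genes with at least 30 UMIs, by cell class (columns, with the number of cells) in the P4 library (left) and the E16 library (right), as log10 of CPM of the class total plus 1. Classes with at least 10 cells are drawn, so a mural-like column stands in E16 only. The mesenchyme-like column is highest for 21 genes in P4 and 13 in E16, many with intervals that overlap the next class.

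Set against epithelial-like cells of the same library, all 14 genes with at least 30 UMIs over both classes were at least 2-fold higher in P4 mesenchyme-like cells. At that threshold 29.4% of 5376 features were higher and 11.4% were lower. The median log2 ratio was 4.34 for the 14 genes and 0.36 over all features measured. In E16 all 13 measured genes were at least 2-fold higher in mesenchyme-like cells, against 20.2% of 5629 features, with a median of 3.30 for the genes and 0.06 over all features. Leaving the 20 most abundant features out of the totals moved the P4 median over all features to 0.02, and all 14 genes were still higher. A gene enters such a comparison through its high class, so these counts describe the 14 and 13 genes and not the 50.

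Among the ADAMTS enzymes, Adamts5, the main aggrecan-cutting enzyme of mouse cartilage, had 222 UMIs in P4 mesenchyme-like cells and 4 in epithelial-like cells, a ratio of 50.4 (interval 19.4 to 186). In E16 it had 187 and 8 UMIs in these classes, a ratio of 22.9. Its neighbour on chromosome 16, Adamts1, which cuts versican and aggrecan, had 181 and 8 UMIs in P4 (ratio 20.5), and 164 and 25 in E16 (ratio 6.44). Adamts2, which removes the amino-terminal propeptide of fibrillar procollagen, had 88 and 4 UMIs in P4. In E16 it had 30 and 0, which is at least 9.82-fold higher in mesenchyme-like cells with the 0 set to 3 counts, while the lower end of the counting interval was 7.50.

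Ctsk, a lysosomal cysteine protease that degrades collagen and is best known from osteoclasts, had 363 UMIs in mesenchyme-like and 10 in epithelial-like cells of P4 (ratio 32.9, interval 17.7 to 69.3). In E16 it had 216 and 7 (ratio 30.3, interval 14.5 to 76.2). Htra3, a secreted serine protease, had a ratio of 33.8 in P4 (interval 18.2 to 71.2) and 37.3 in E16 (interval 6.30 to 1512). The E16 value rests on 38 UMIs against 1.

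The smallest class ratios were found in E16. Adamts9, a protease that cuts versican, had 24 UMIs in mesenchyme-like and 8 in epithelial-like cells (ratio 2.94, interval 1.28 to 7.58), and Mmp2, the main gelatinase of fibroblasts, had 44 and 13 (ratio 3.32, interval 1.76 to 6.72). Mmp14, the membrane-anchored protease that activates Mmp2, had 127 UMIs in mesenchyme-like and 35 in epithelial-like cells of E16, a ratio of 3.56. Timp3, an inhibitor that binds to the matrix, had 123 and 31 there, a ratio of 3.89. In P4 the ratios were 12.8 for Mmp14 and 7.75 for Timp3. Mesenchyme markers in epithelial-like cells summed to 1191 CPM in P4 and 341 CPM in E16, with 10 of 12 detected and Twist1 and Twist2 at 0 in both. In mesenchyme-like cells they summed to 47356 CPM in P4 and 18837 CPM in E16. The part of such RNA in the epithelial-like values was not tested. Erythroid-like cells, which should lack these genes, held 33.3 UMIs of the 50 genes per 100 cells in P4 and 20.0 in E16. Epithelial-like cells held 172 and 253 per 100 cells in these libraries, and mesenchyme-like cells held 1906 and 1482.

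**Figure D2:**
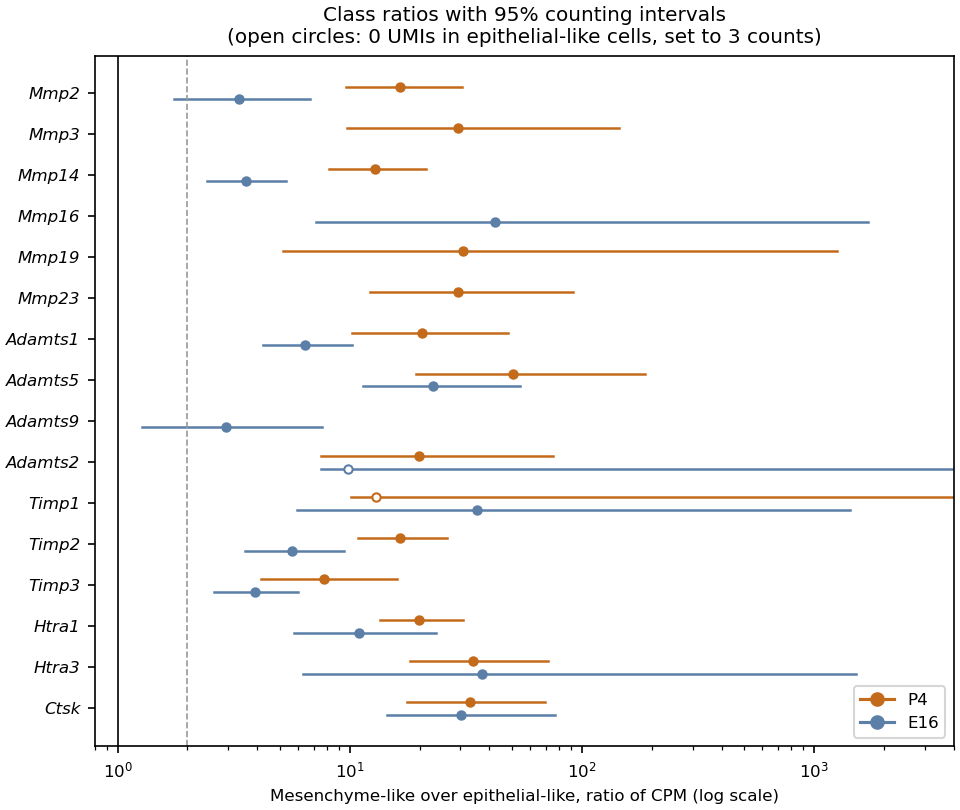
Ratio of CPM, mesenchyme-like over epithelial-like cells (log axis), for each gene with at least 30 UMIs over both classes in P4 (orange) or E16 (blue). Bars are 95% counting intervals, open circles are genes with 0 UMIs in epithelial-like cells set to 3 counts, the dashed line marks 2-fold, and every point lies to the right of it.

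Within mesenchyme-like cells, 20 of the genes had at least 30 UMIs over both stages. Of these, 8 were at least 2-fold higher in P4 than in E16, 2 were at least 2-fold lower and 10 lay between. Over all 5711 features measured, 6.93% were higher and 13.6% were lower by that much. The median log2 ratio was 0.42 for the 20 genes and -0.18 over all features. The sum of the 12 mesenchyme markers was also higher in P4, as given above, and its part in the stage ratios was not tested. Different clusters supplied the class at the 2 stages, as described further on. When the P4 cells of clusters 12 and 15 were left out, 5 genes were higher and 1 was lower, of fewer genes measured. These 2 counts are given without a share over all features for the same cells, so they are not set against a background. Mmp19 left the count by falling under 30 UMIs, while Timp2, Adamts2 and Adamts9 came within 2-fold. Of the 97 P4 cells left, 82 were in cluster 7. For that cluster alone against E16 mesenchyme-like cells, 5.81% of 4577 features were at least 2-fold higher and 15.7% lower.

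The gene with the largest ratio was Mmp23 (chromosome 4, 155650655 to 155653384, minus strand), a protease made with a membrane anchor and released by cleavage. It had 161 UMIs (198 CPM) in P4 mesenchyme-like cells and 8 (12.5 CPM) in those of E16, a ratio of 15.8 (interval 7.85 to 37.3). At least 1 UMI was found in 41.8% of P4 cells and 6.12% of E16 cells. With each cell thinned to 2269 UMIs these shares were 25.8% of 159 cells and 2.11% of 95 cells. Without the P4 cells of clusters 12 and 15 the ratio was 5.53.

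Htra3 (chromosome 5, 35652023 to 35679782, minus strand) followed, with 373 UMIs (459 CPM) in P4 and 38 (59.5 CPM) in E16, a ratio of 7.72 (interval 5.52 to 11.1). It was found in 67.2% of P4 and 25.5% of E16 mesenchyme-like cells, or 51.6% and 12.6% after thinning. No erythroid-like cell held a UMI of Htra3 or Mmp23, of 12 cells in P4 and 25 in E16, which allows shares of cells with a UMI of up to 25% and 12% when 3 counts are taken as the limit. The upper ends of the Clopper-Pearson intervals were 26.5% and 13.7%. The median depth of those cells was 5439 UMIs in P4 and 6700 in E16, against 4396 and 6110.5 in mesenchyme-like cells. These depths are not alike, because erythroid markers held 63123 of 69180 UMIs of the erythroid-like cells in P4 and 164340 of 175213 in E16. Far fewer UMIs were left for other genes, so the absence of Htra3 and Mmp23 there says little. Htra1 (chromosome 7, 130936111 to 130985660), a secreted serine protease of the same family that cuts several matrix proteins, had 571 UMIs (703 CPM) in P4 and 112 (175 CPM) in E16. That was a ratio of 4.01 (interval 3.27 to 4.96). Ctsk, the third of these enzymes that are not metalloproteinases, lay within 2-fold, with 447 CPM in P4 and 338 CPM in E16 (ratio 1.32, interval 1.11 to 1.57). Without the P4 cells of clusters 12 and 15 the ratio of Htra3 was 2.71.

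The gelatinase Mmp2, its activator Mmp14 and its partner in activation Timp2 work together at the cell surface, where Timp2 links the Mmp2 precursor to Mmp14. Mmp2 (chromosome 8, 92827291 to 92853420) had 253 UMIs (312 CPM) in P4 and 44 (68.9 CPM) in E16, a ratio of 4.52 (interval 3.27 to 6.38). Timp2 (chromosome 11, 118301069 to 118355740) had 419 UMIs (516 CPM) in P4 and 121 (189 CPM) in E16, a ratio of 2.72 (interval 2.22 to 3.36). Mmp14 (chromosome 14, 54431612 to 54445364) had 282 UMIs (347 CPM) in P4 and 127 (199 CPM) in E16. Its ratio of 1.75 (interval 1.41 to 2.17) was higher in P4 beyond counting error but short of 2-fold. Without clusters 12 and 15 Timp2 was at 1.35 and no longer passed the threshold. Mmp9, the other gelatinase, had 9 UMIs, which all lay in 6 macrophage-like cells of P4.

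Mmp3 (stromelysin, chromosome 9, 7445822 to 7455975), which cuts a wide range of matrix proteins and activates other MMPs, had 97 UMIs (119 CPM) in P4 and 15 (23.5 CPM) in E16, a ratio of 5.09 (interval 2.94 to 9.44). These came from few cells. It was found in 32 of 177 P4 and 6 of 98 E16 cells, and 1 cell held 24 of the 97 UMIs in P4 and 9 of the 15 in E16. Without the top cell of each library the ratio was 9.55. Mmp19 (chromosome 10, 128790910 to 128800824), a secreted MMP, had 34 UMIs in P4 and 10 in E16, a ratio of 2.67 (interval 1.29 to 6.07). Adamts2 (chromosome 11, 50602084 to 50807573) had 88 UMIs (108 CPM) in P4 and 30 (47.0 CPM) in E16, a ratio of 2.31 (interval 1.51 to 3.62). Both intervals reach below 2-fold, and Adamts2 was at 1.58 without the P4 cells of clusters 12 and 15.

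Of the proteases that cut proteoglycans, Adamts5 (chromosome 16, 85856173 to 85901828) had 273 CPM in P4 and 293 CPM in E16, a ratio of 0.934 (interval 0.765 to 1.14). Adamts1 (chromosome 16, 85793827 to 85803113) had 223 CPM in P4 and 257 CPM in E16, a ratio of 0.868 (interval 0.699 to 1.08). Both intervals include equal levels. Adamts4, a second aggrecan-cutting enzyme, had 14 UMIs in P4 and 20 in E16, a ratio of 0.551 with an interval from 0.257 to 1.15. Adamts9 (chromosome 6, 92772699 to 92943492) was lower in P4, with 11 UMIs (13.6 CPM) against 24 (37.6 CPM) in E16 and a ratio of 0.361 (interval 0.159 to 0.765). Without the P4 cells of clusters 12 and 15 it was at 0.682. Mmp16 (chromosome 4, 17852893 to 18119145), a membrane-type MMP related to Mmp14, had the lowest ratio. It had 17 UMIs (20.9 CPM) in P4 and 43 (67.3 CPM) in E16, a ratio of 0.311 (interval 0.166 to 0.557).

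The inhibitors did not move together. Timp2 was higher in P4, as given above. Timp1, a secreted inhibitor, had 43 UMIs (53.0 CPM) in P4 and 36 (56.4 CPM) in E16, a ratio of 0.940 (interval 0.589 to 1.51). Timp3 (chromosome 10, 86300372 to 86349506) had 94 UMIs (116 CPM) in P4 and 123 (193 CPM) in E16. Its ratio of 0.601 (interval 0.455 to 0.793) lay below 1 beyond counting error and within 2-fold. Reck, a membrane-anchored inhibitor of several MMPs, had 18 UMIs in P4 and 25 in E16, a ratio of 0.566 (interval 0.291 to 1.08). Timp4 had 1 UMI in P4 and 28 in E16, too few for a ratio here, and 18 of the 28 came from 1 cell. Among the procollagen and remaining ADAMTS enzymes, Adamts14 was at 1.23 (interval 0.631 to 2.46) and Adamts10, which is linked to fibrillin microfibrils, was at 1.35 (interval 0.670 to 2.82).

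**Figure D3:**
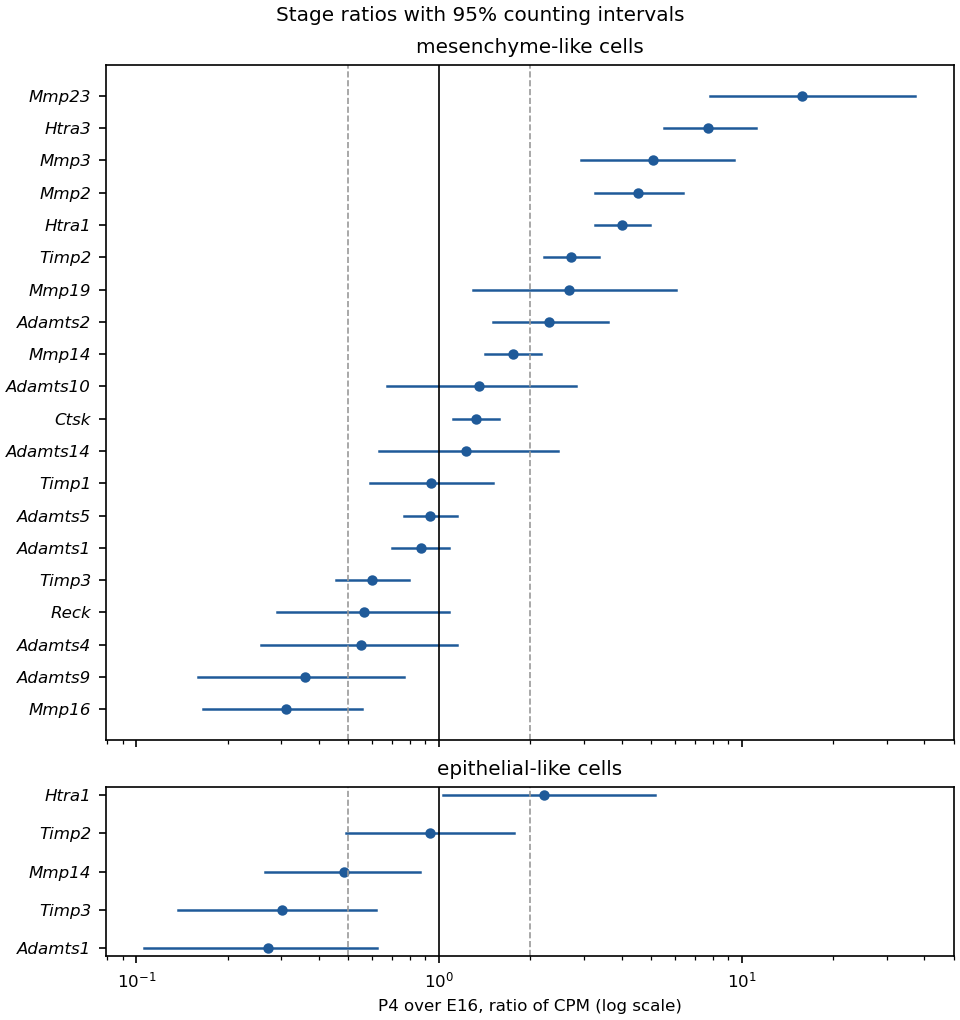
Ratio of CPM, P4 over E16 (log axis), for genes with at least 30 UMIs over both stages in mesenchyme-like cells (top, 20 genes) and epithelial-like cells (bottom, 5 genes). Bars are 95% counting intervals and dashed lines mark 2-fold in each direction. The mesenchyme-like ratios run from 15.8 for Mmp23 down to 0.311 for Mmp16.

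The mesenchyme-like class was made of 5 clusters, and the 2 stages filled different ones. Cluster 7 held 82 cells in P4 and 10 in E16, cluster 12 held 41 and 2, and cluster 15 held 39 and 3. Cluster 1 held 6 cells in P4 and 21 in E16, and cluster 2 held 9 and 62. Clusters 12 and 15 were led by Mfap5, Clec3b, Ly6a and Dcn, and cluster 7 by Dcn, Kera, Lum and Dlk1. Cluster 1 was led by Dcn, Kera, Dlk1 and Crabp1, and cluster 2 by A230065H16Rik, Kera, Dlk1 and Crabp1. The 50 genes took no part in forming the clusters, although genes that vary with them did, so the levels below are descriptions.

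In P4, cluster 12 stood apart. Of 14 genes measured, 5 were at least 2-fold higher there than in the other mesenchyme-like cells of P4, where 5.76% of 3765 features were, and 2 were at least 2-fold lower, where 17.2% of features were. Htra3 reached 1024 CPM in cluster 12 (interval 881 to 1183), against 299 CPM in the other cells, a ratio of 3.42 (interval 2.78 to 4.22). Timp2 reached 979 CPM against 384 CPM, a ratio of 2.55 (interval 2.09 to 3.10). The other higher genes were Timp1 (ratio 2.78, interval 1.44 to 5.30), Mmp23 (2.70, interval 1.95 to 3.73) and Mmp2 (2.19, interval 1.68 to 2.83). The lower genes were Mmp3, with 4 UMIs against 93 (ratio 0.151), and Mmp19, with 2 against 32 (ratio 0.220).

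Cluster 15 shared the high Htra3 and Timp2 levels in part, at 521 and 591 CPM, and differed from cluster 12 in Mmp3. It held 59 of the 97 Mmp3 UMIs, 244 CPM (interval 186 to 314) against 22.3 CPM (interval 6.06 to 57.0) in cluster 12, although 1 cell gave 40.7% of those 59. Against the other P4 mesenchyme-like cells, Mmp3 was the 1 higher gene of 14 (ratio 3.65, interval 2.39 to 5.65), where 4.3% of features were higher. Ctsk was the 1 lower gene (ratio 0.438, interval 0.324 to 0.583), where 6.37% were lower. Cluster 7 had no gene at least 2-fold higher, where 6.59% of features were, and 3 lower, where 9% were. These were Mmp23 (ratio 0.222), Htra3 (0.263) and Timp2 (0.277). The highest Ctsk, Htra1 and Mmp14 values of the P4 clusters shown lay in cluster 7, at 603, 816 and 413 CPM.

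**Figure D4:**
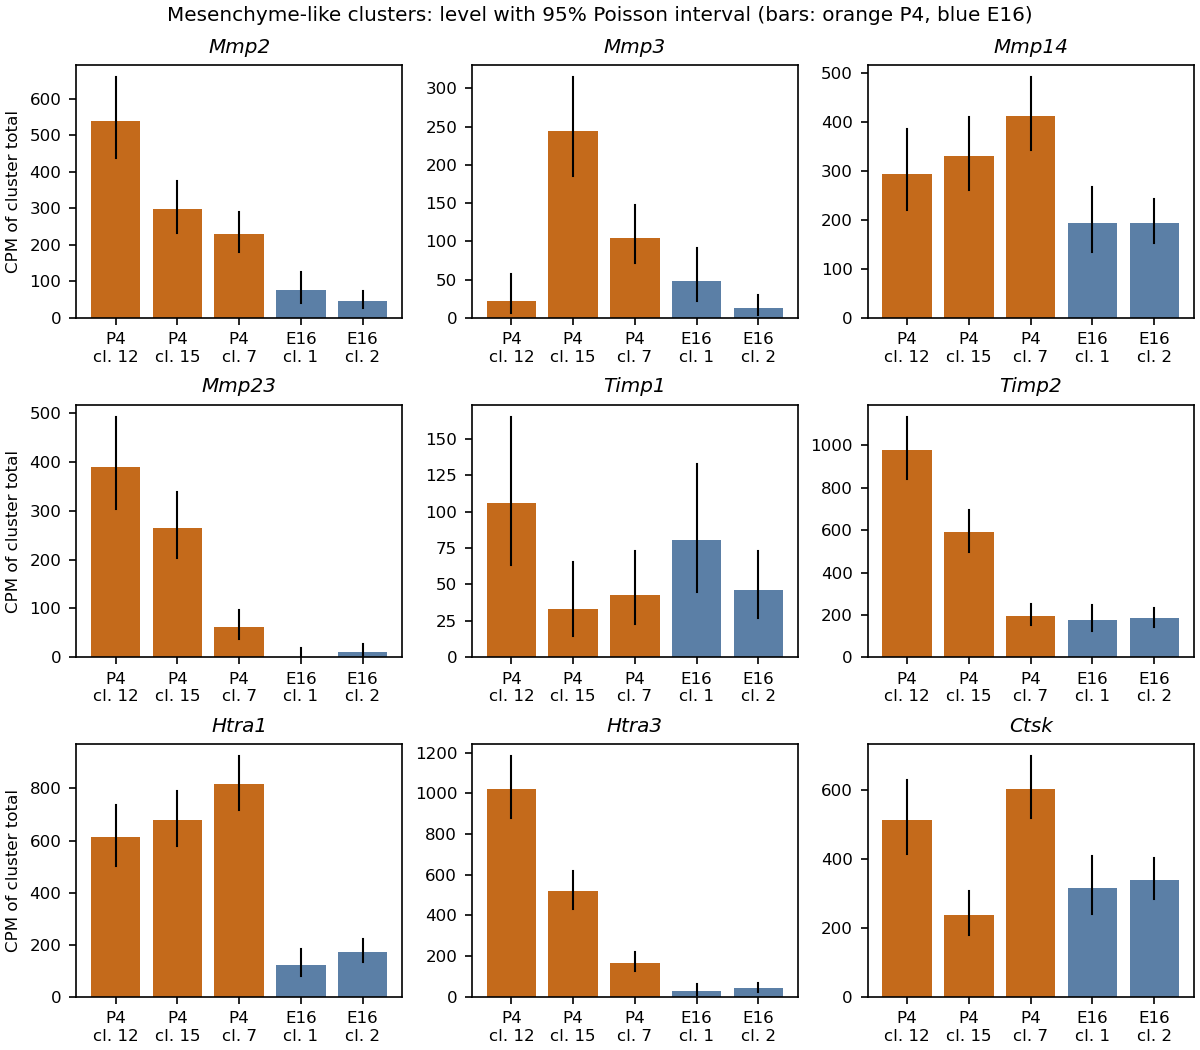
Level of 9 genes in mesenchyme-like clusters, as CPM of the cluster total, for P4 (orange, clusters 12, 15 and 7) and E16 (blue, clusters 1 and 2). Cluster 7 of E16, with 10 cells, is not drawn. Its Htra1 was at 469 CPM, Ctsk at 441 CPM, Htra3 at 138 CPM and Timp2 at 110 CPM. Lines are 95% Poisson intervals. Htra3 and Timp2 step down over the P4 clusters 12, 15 and 7, from 1024 to 521 and 167 CPM and from 979 to 591 and 197 CPM, while Htra1 lies between 612 and 816 CPM in all of them.

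The same P4 clusters were also set against all E16 mesenchyme-like cells, which these ratios share. Htra1 was at 3.49 in cluster 12, 3.86 in cluster 15 and 4.65 in cluster 7. Mmp2 was at 7.83, 4.32 and 3.33 in these clusters. Timp2 was at 5.17 in cluster 12 and 3.12 in cluster 15, but at 1.04 in cluster 7 (interval 0.748 to 1.43). Htra3 was at 17.2, 8.75 and 2.81. Over all features, 8.27% were at least 2-fold higher in cluster 12, 7.92% in cluster 15 and 5.81% in cluster 7. Cluster 7 was the only one with at least 10 cells at both stages. Within it 10 genes were measured, and 3 were at least 2-fold higher in P4, where 18.4% of 1990 features were, and none was lower, where 6.43% were. The 3 were Mmp3 (ratio 3.80, interval 0.635 to 155), Mmp14 (2.14, interval 1.01 to 5.43) and Adamts1 (2.02, interval 0.833 to 6.38). Mmp2 was at 1.66 there (interval 0.680 to 5.28), with 4 of its 5 E16 UMIs from 1 cell. Htra3 was at 1.21 (interval 0.487 to 3.89) and Htra1 at 1.74 (interval 1.07 to 3.04), with 12 of the 17 E16 Htra1 UMIs from 1 cell. Between clusters 1 and 2 of E16 the steps were smaller. Mmp2 was at 75.0 CPM in cluster 1 and 46 CPM in cluster 2, and Timp2 at 177 and 184 CPM. The 10 E16 cells of cluster 7 had Mmp2 at 138 CPM (interval 44.8 to 322) and Htra3 at 138 CPM, from 5 UMIs each. Htra1 was at 469 CPM there, against 123 in cluster 1 and 174 in cluster 2, while Timp2 was lower, at 110 CPM. Of 12 genes measured, none was at least 2-fold higher in cluster 1 or 2 than in the other E16 mesenchyme-like cells. Over all features, 8.83% were in cluster 1 and 6.86% in cluster 2. Those other cells include cluster 7, which was not itself compared in this way. Htra3 was lower in both (ratios 0.367 and 0.459) and Mmp2 in cluster 2 (0.437), where 8.75% of features were lower in cluster 1 and 8.52% in cluster 2.

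In epithelial-like cells 5 genes reached 30 UMIs over both stages. Here too the stages filled different clusters. The P4 cells were 35 in cluster 0, 3 in cluster 3, 33 in cluster 9 and 27 in cluster 16, and the E16 cells were 48, 31, 8 and 0 in these clusters. Cluster 9 was led by Wfdc18, Krt18 and Krt8, and cluster 16 by Dcpp3, Dcpp2 and Dcpp1. Adamts1 had 8 UMIs in P4 and 25 in E16, a ratio of 0.272 (interval 0.106 to 0.623). With cells weighted equally it was at 0.561, within 2-fold, and 1 cell held 6 of the 25 E16 UMIs. Timp3 had 11 in P4 and 31 in E16, a ratio of 0.302 (interval 0.137 to 0.617). Mmp14 had 20 in P4 and 35 in E16, a ratio of 0.486 (interval 0.266 to 0.866). Timp2 was nearly level, with 23 UMIs in P4 and 21 in E16 (ratio 0.932, interval 0.493 to 1.77). Htra1 was higher in P4, with 26 UMIs against 10 in E16, a ratio of 2.21 (interval 1.03 to 5.14). So 3 were at least 2-fold lower and 1 was higher, in a class where 27.4% of 5007 features were lower and 7.09% were higher and the median log2 ratio of all features was -0.53. With the 20 most abundant features left out of the totals that median was -0.08, 13.6% of features were lower and 12.4% higher, and Mmp14 was at 0.663, within 2-fold. The sum of mesenchyme markers in these cells was higher in P4 than in E16, as given above, and its part in these ratios was not tested.

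Cluster 3, led by Epcam, Perp, Fxyd3 and Col9a1, held 31 of the 87 epithelial-like cells of E16 and 68.3% of their UMIs of all genes. It held 72.3% of the UMIs of the 50 genes, close to its share of the class. Of single genes it held 24 of 31 Timp3 UMIs, 18 of 21 Timp2 UMIs and 21 of 35 Mmp14 UMIs. These cells were deep, with a median of 10597 UMIs over both stages. Relative to its total, Mmp14 was at 49.0 CPM in cluster 3 and 70.8 CPM in cluster 0 of E16, and Timp3 was at 56.0 CPM (interval 35.9 to 83.4) and 12.9 CPM (interval 1.56 to 46.5) in these clusters. The intervals overlapped for both genes, which does not show that the levels are alike, and no ratio of these clusters was taken. Adamts18, an ADAMTS enzyme, was the member with the most epithelial counts relative to its total. It had 21 of its 23 UMIs in epithelial-like cells, 4 in P4 and 17 in E16, and 16 of the 17 came from cluster 3. Adamts7 had 9 of its 15 UMIs in epithelial-like cells.

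Outside epithelium and mesenchyme, a few genes stood out in small classes. Timp2 in P4 macrophage-like cells was at 490 CPM (68 UMIs in 47 cells, interval 380 to 621), with an interval that overlaps that of mesenchyme-like cells. Mesenchyme markers summed to 742 CPM in those macrophage-like cells. Mmp12, the macrophage elastase, had 4 UMIs, all from 1 monocyte or dendritic-like cell of P4. Adamts1 had overlapping intervals in endothelial-like and mesenchyme-like cells of each library. It had 26 UMIs (309 CPM) in P4 and 19 (198 CPM) in E16 endothelial-like cells, a stage ratio of 1.56 (interval 0.830 to 2.98). It was the only one of the 50 genes measured there, in a class where 12.4% of 1173 features were at least 2-fold higher. The endothelial-like class held 22 cells in P4 and 10 in E16. Of these, cluster 8 held 11 in P4 and 8 in E16, and cluster 10, led by Cldn5, Vwf and Fabp4, held 11 and 2.

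Mmp11, the stromelysin known from stroma around tumours, was highest in mural-like cells in E16. It had 14 UMIs in 16 mural-like cells (181 CPM, interval 99.1 to 304), against 5 in mesenchyme-like cells (7.83 CPM, interval 2.54 to 18.3). The 9 mural-like cells of P4 held 3 UMIs of it. Adamts17 had 12 UMIs in E16 mural-like cells, all from 1 cell. Mural-like cells of E16 also held Timp2 at 285 CPM, Htra1 at 272 CPM, Timp3 at 220 CPM and Mmp14 at 207 CPM. Their mesenchyme markers summed to 8894 CPM, with 11 of 12 detected and Dpt at 0. Of the genes with few counts, Adamts16 had 18 UMIs in P4 and 3 in E16 mesenchyme-like cells. Mmp27 and Adamts19 had 6 UMIs each, all in P4 mesenchyme-like cells. The remaining genes with few counts were Adamts12 (26 UMIs), Mmp17 (14), Adamts20 (4), Adamts8 (3), Adamts3 (2) and Mmp28 (1). Mmp15, a membrane-type MMP, and Adamts15, which cuts proteoglycans, reached 30 UMIs in all cells but had too few in any class for a stage ratio, as had Mmp11, Adamts17 and Timp4.

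Other extracellular proteolysis genes, a list of 46 that holds plasminogen activators, serpins, cathepsins, ADAM proteases and procollagen-processing genes, were compared in the same way. In mesenchyme-like cells 31 were measured, 8 had P4 levels of at least 2-fold those in E16, and none was lower, where 6.93% of all features were higher and 13.6% lower. The median log2 ratio of the 31 was 0.56. Ctsl, a lysosomal cysteine protease, had 446 UMIs in P4 and 49 in E16 (ratio 7.16, interval 5.32 to 9.83). Dpp4, a membrane serine peptidase, had 79 and 9 (ratio 6.91, interval 3.46 to 15.7). Serpinf1, a serpin with no inhibitory action on proteases, had 1057 and 199 (ratio 4.18), Prss23 had 312 and 70 (ratio 3.51), and Pcolce, which enhances removal of the carboxy-terminal procollagen propeptide, had 1517 and 366 (ratio 3.26). Against epithelial-like cells, 22 of 24 measured were higher in P4 mesenchyme-like cells, where 29.4% of all features were, and 13 of 21 in E16, where 20.2% were.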

How the data were processed

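Cells of pooled lacrimal glands were captured from 1 P4 and 1 E16 library. The series title names 10x Genomics, and the labels' protocol names Drop-seq. The deposited values are whole-number UMI counts per gene and barcode, with no normalization. Cell Ranger and mm10 were used, per the submitters' processing notes. Version, settings and annotation were not given in those notes. Reads that fit several genes are commonly dropped.

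Barcodes with at least 200 detected genes were kept. Those left out, 281 in P4 and 178 in E16, had a median haemoglobin share of 95.7% and 95.9%. The 13 mitochondrial features had 0 UMIs. Scrublet called 0 doublets in P4 and 1 in E16, which was kept. Counts were scaled to 10000 per cell and logged, 2000 variable genes without the 50 members were clipped at 10, and Leiden clustering (scanpy 1.11.5, resolution 1) used 20 components and 15 neighbours. Clusters took the class with the highest marker score and needed 3 markers detected. Leading genes had the largest CPM ratio.

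UMIs were summed per class and library. Ratios of CPM carry exact conditional intervals, levels Poisson intervals and shares Clopper-Pearson intervals, all 95% and for counting error only. A ratio needed 30 UMIs over both sides, was called at 2-fold, and took a side at 0 as 3 counts. The procedure was run on simulated independent Poisson counts. These lack the clumping of UMIs in single cells seen here, so that run cannot show how the intervals behave for such genes. Genes were named with values at 30 UMIs or more over both libraries and by count below that. Of the other list, up to 5 called genes were named per comparison. Members and lists were chosen with earlier results of these data known. All 50 members matched GENCODE M21 (GRCm38) by identifier, and 36 matched the RefSeq promoter table. Alternatives were other filters, resolutions, class definitions, scalings, count minimums and folds, and leaving out the doublet or top cells.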

Additional observations from a re-analysis of the deposited data

Results flagged for a closer look

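Mmp14 lay on opposite sides of 1 in the main classes, with a P4 over E16 ratio of 1.75 in mesenchyme-like cells (interval 1.41 to 2.17) and 0.486 in epithelial-like cells (interval 0.266 to 0.866). The intervals do not overlap, and the difference between the classes was not tested. In epithelial-like cells 27.4% of 5007 features were at least 2-fold lower in P4. The Mmp14 ratio there was 0.663 with the 20 most abundant features left out of the totals, and 0.502 with classes from marker scores. Both lie within 2-fold. Timp2 was at 2.72 in mesenchyme-like cells (interval 2.22 to 3.36) and 0.932 in epithelial-like cells (interval 0.493 to 1.77), and this difference was not tested either.

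Barcodes under 200 genes, which no comparison used, still held RNA of these genes above the 3 counts that a 0 allows. Htra1 had 10 UMIs in 281 such barcodes of P4, and Ctsk had 6 in 178 of E16. Over the 50 genes these barcodes held 39 UMIs in P4 and 20 in E16, or 13.9 and 11.2 per 100 barcodes, against 945 and 783 per 100 kept cells.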

How the results depend on the processing

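No paired analysis was possible because each stage is 1 library, and for the same reason no replicate could be left out. Over 16 alternatives, 15 planned and 1 chosen after seeing the data, 52 ratios of single genes gave 648 values, of which 10 lay outside the main interval, and no ratio called at 2-fold changed direction. The call at 2-fold changed for 8 of the 648, and for 5 of the 633 planned ones. Part of the 648 values could not move. The minimums of 10 and 100 UMIs use the same cells and totals, so their ratios equal the main ones by design. Leaving out the doublet removed 1 cell. The 4 median log2 ratios kept their sign in every alternative that gave them. Counts of genes past the threshold moved more. The shares over all features given above belong to the main setting of 2-fold and 30 UMIs. They do not apply to the counts below, which are given without a background and partly over other numbers of genes. In mesenchyme-like cells the 8 higher genes became 5 at 3-fold and 5 without the P4 cells of clusters 12 and 15. The 2 lower genes became 1 with resolution 0.5, with each library clustered alone, at 3-fold and without those clusters, 4 with cells weighted equally or a minimum of 10 UMIs, 5 at 1.5-fold, and 0 with a minimum of 100 UMIs. In epithelial-like cells the 1 higher gene became 0 with classes from marker scores and at 3-fold, and 2 with a minimum of 10 UMIs. The 3 lower genes became 1 with marker scores and 6 with a minimum of 10 UMIs. With a minimum of 10 UMIs the genes higher in mesenchyme-like than epithelial-like cells were 24 of 24 in P4 and 23 of 26 in E16, and with a minimum of 100 UMIs they were 7 of 7 in E16. That minimum left no epithelial-like stage ratio. The cause of the moves under resolution, clustering, weighting and marker scores was not tested. Mmp23 was at 10.3 and Mmp3 at 9.48 with resolution 0.5. Depth limits the small classes most, since 3 counts are 99 CPM in P4 mural-like and 31.3 CPM in E16 endothelial-like cells.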

Other observations

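The other extracellular proteolysis list was also compared outside mesenchyme. In endothelial-like cells 9 were measured, 5 were at least 2-fold higher in P4 than in E16 and none was lower, where 12.4% of 1173 features were higher and 11.1% lower. This class held only 22 cells in P4 and 10 in E16. Its 2 clusters were filled differently at the stages, as given above, and the part of that mix in the ratios was not tested. Pcolce had 31 UMIs in P4 and 4 in E16 (ratio 8.83, interval 3.12 to 34.4), Cst3, a cysteine protease inhibitor, had 121 and 35 (ratio 3.94), and the cathepsin Ctsb had 44 and 15 (ratio 3.34). In epithelial-like cells 12 were measured, and 4 were lower in P4 and 1 was higher, in a class where 27.4% of 5007 features were lower and 7.09% higher, so the lower count is near the share over all features. Vcan, the proteoglycan that several ADAMTS enzymes cut, had 17 UMIs in P4 and 135 in E16 there. Serpine2, an inhibitor of thrombin and urokinase, had 71 and 263, Fbln1, a matrix protein that binds Adamts1, had 23 and 88, and the collagen chaperone Serpinh1 had 214 and 501. Cst3 was higher in P4, with 438 UMIs against 160 in E16 (ratio 2.33).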
